A study of Rattus norvegicus with 12 samples.

Results

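The list described here held 35 genes of inflammatory signalling: secreted cytokines and chemokines, the NF-kB transcription factors with their inhibitors, and genes that NF-kB is known to switch on. Members were taken by symbol, through the RefSeq transcript that each array probe names, and the brightest probe of a gene gave its value. Of the 35 genes, 32 had a matched probe and 27 passed the filter on dim probes, among 11689 genes with a symbol and 29603 features tested in all. Nfkb1, Relb and Tnfaip3 had no matched probe and were not analysed here.

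Renal cortex was measured in 12 male Sprague-Dawley rats, bought at 5 weeks of age, with 1 one-colour array per rat. The treated rats had tert-butyl alcohol (TBA, an industrial solvent that the body also forms from the petrol ethers MTBE and ETBE) for 4 weeks at a daily dose of 1000 mg/kg, and the others had water, the vehicle. They were anesthetised 24 h after the last dose with a CO2-O2 mixture (4:1) or with isoflurane. This gave TBA rats under CO2-O2, vehicle rats under CO2-O2, TBA rats under isoflurane and vehicle rats under isoflurane, 3 rats in each. All of the animals were outbred young males of 1 supplier, and every group had an anesthetic.

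NF-kB proteins are held in the cytoplasm by inhibitors such as the product of Nfkbia until a signal from a cytokine or Toll-like receptor frees them to enter the nucleus. There they switch on cytokines, chemokines and adhesion molecules that recruit leukocytes, together with their own inhibitors, which closes a negative feedback loop. In the kidney these genes are expressed by tubule cells, endothelium and resident macrophages, and many of them rise in acute tubular injury and nephritis.

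The members' promoters were searched for the letters of the NF-kB consensus, which cannot show which members NF-kB controls. RefSeq promoters of the GRCr8 rat assembly were found for 26 of the 35 members. The NF-kB consensus, searched on both strands in the 250 bases before the start of transcription, was present in 11 of the 26 members' windows and in 6.33% of all 33469 promoters. A match describes the letters of the window and not a bound site. The members with a match were Ccl7, Ccl20, Cxcl1, Cxcl2, Cxcl11, Il6, Nfkb2, Nfkbia, Socs3, Tnfaip3 and Vcam1. The windows printed here include those of Socs3, Cxcl11, Cxcl12 and Cxcl1, which had 1 of the 3 lowest p-values among members in a TBA comparison. Ccl3 was also among these, but no promoter was found for it. The windows of Nfkbia, the feedback inhibitor, and Il6, a textbook NF-kB target that was below background here, are printed too. Each window reads 5′ to 3′ on the gene's own strand and capitals mark the consensus match.
Socs3 (chr10:103694769-103695018, - strand): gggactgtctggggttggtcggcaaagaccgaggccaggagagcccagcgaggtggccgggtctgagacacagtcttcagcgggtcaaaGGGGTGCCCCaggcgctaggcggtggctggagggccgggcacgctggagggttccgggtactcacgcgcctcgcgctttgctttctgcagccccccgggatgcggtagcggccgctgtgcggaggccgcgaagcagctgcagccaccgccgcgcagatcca
Cxcl11 (chr14:15973478-15973727, + strand): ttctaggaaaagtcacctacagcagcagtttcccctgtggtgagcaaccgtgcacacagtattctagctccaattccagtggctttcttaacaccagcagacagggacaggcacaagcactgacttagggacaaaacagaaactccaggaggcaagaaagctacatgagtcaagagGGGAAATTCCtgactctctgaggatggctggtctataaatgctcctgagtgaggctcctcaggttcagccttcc
Cxcl1 (chr14:17479322-17479571, - strand): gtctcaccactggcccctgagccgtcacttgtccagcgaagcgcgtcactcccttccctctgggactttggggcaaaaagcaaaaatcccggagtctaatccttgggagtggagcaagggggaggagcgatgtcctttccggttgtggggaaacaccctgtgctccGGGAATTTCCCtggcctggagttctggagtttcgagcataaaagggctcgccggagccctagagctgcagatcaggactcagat
Cxcl12 (chr4:152060531-152060780, + strand): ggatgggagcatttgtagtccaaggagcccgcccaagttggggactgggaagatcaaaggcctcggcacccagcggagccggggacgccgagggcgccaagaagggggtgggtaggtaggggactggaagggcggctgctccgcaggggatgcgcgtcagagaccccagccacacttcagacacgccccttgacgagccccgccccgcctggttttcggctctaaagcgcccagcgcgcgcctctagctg
Nfkbia (chr6:78597073-78597322, - strand): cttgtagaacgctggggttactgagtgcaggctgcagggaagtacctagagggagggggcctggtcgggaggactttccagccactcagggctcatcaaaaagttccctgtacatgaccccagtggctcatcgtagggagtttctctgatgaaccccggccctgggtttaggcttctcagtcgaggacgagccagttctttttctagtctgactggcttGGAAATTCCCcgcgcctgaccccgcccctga
Il6 (chr4:5894576-5894825, - strand): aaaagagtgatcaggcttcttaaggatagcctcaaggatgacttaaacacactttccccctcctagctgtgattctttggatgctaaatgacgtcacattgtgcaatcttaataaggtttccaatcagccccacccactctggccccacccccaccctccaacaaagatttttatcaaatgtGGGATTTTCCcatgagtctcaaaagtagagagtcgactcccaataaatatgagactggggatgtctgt
The last base of the match lay 152 bases before the start in Socs3, 65 in Cxcl11, 22 in Nfkbia and 59 in Il6. Cxcl1 held 2 overlapping matches, on opposite strands, with last bases 75 and 74 bases before the start. The Cxcl12 window held no match, which says only that these letters are absent from this window.

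Signals are given as the log2 of an array's processed signal minus that array's 75th percentile, so a value of 0 is as bright as the 75th percentile of the array's probes. Brightness differs between probes for technical reasons, so levels were compared between rats for 1 gene and never between genes. Between 61.6% and 71.0% of the probes on an array were well above background, and within-group correlations between arrays were 0.989 to 0.994. All 7 proximal tubule markers (among them Slc34a1, Lrp2 and Aqp1) and all 4 podocyte markers were well above background on all 12 arrays, which fits the cortex label. Of the leukocyte markers, 8 of 10 for macrophages, 3 of 6 tested for T cells, 1 of 3 tested for neutrophils and 0 of 2 tested for B cells were so, and Cd2, Cd79a, Ms4a1, Mpo and Ngp were not tested. Averaged over anesthetics, all 7 proximal tubule markers were higher in TBA rats, where 53.9% of all features were, and 1, the organic anion transporter gene Slc22a8, passed the threshold (0.38 ± 0.06; limma adjusted p = 0.0292), where 1.88% of all features did. The tissue was measured in bulk, so fewer cells of a type and less RNA per cell cannot be told apart. Of the 3 array slides, slide 1 was scanned on day 1 with all vehicle CO2-O2 rats and only rat 3 of the TBA CO2-O2 group. The remaining TBA CO2-O2 rats, 1 and 2, shared slide 2 with the vehicle isoflurane group, and the TBA isoflurane group was alone on slide 3, both of these being scanned on day 2. TBA under isoflurane and slide 3 cannot be told apart.

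Not every member was detected. Il6 (the acute-phase cytokine interleukin-6) and the endothelial selectins Sele and Selp, which slow leukocytes on the vessel wall, were well above background on 0 of 12 arrays. Il1a and Cxcl2, a neutrophil chemokine, were so on 1 array each, from vehicle isoflurane rats, and these 5 genes were not tested. Signals of Il6 were -8.10, -8.10 and -7.52 in TBA CO2-O2 rats against -8.03, -7.81 and -8.24 in vehicle CO2-O2 rats. Under isoflurane Il6 gave -7.47, -7.63 and -7.21 in TBA rats against -8.03, -7.25 and -8.44 in vehicle rats, and the lowest signal called well above background on any array was -6.26. The single Il1a call was a signal of -1.43 in vehicle isoflurane rat 2, where the other 11 arrays lay between -7.95 and -6.95 and the gene's second probe was not above background on any array. Of the 27 tested members, 24 were well above background on all 12 arrays. Cxcl9, an interferon-induced T cell chemokine, was so on 11 arrays, the monocyte chemokine Ccl7 on 8, and Ptgs2 on 6.

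**Figure D1:**
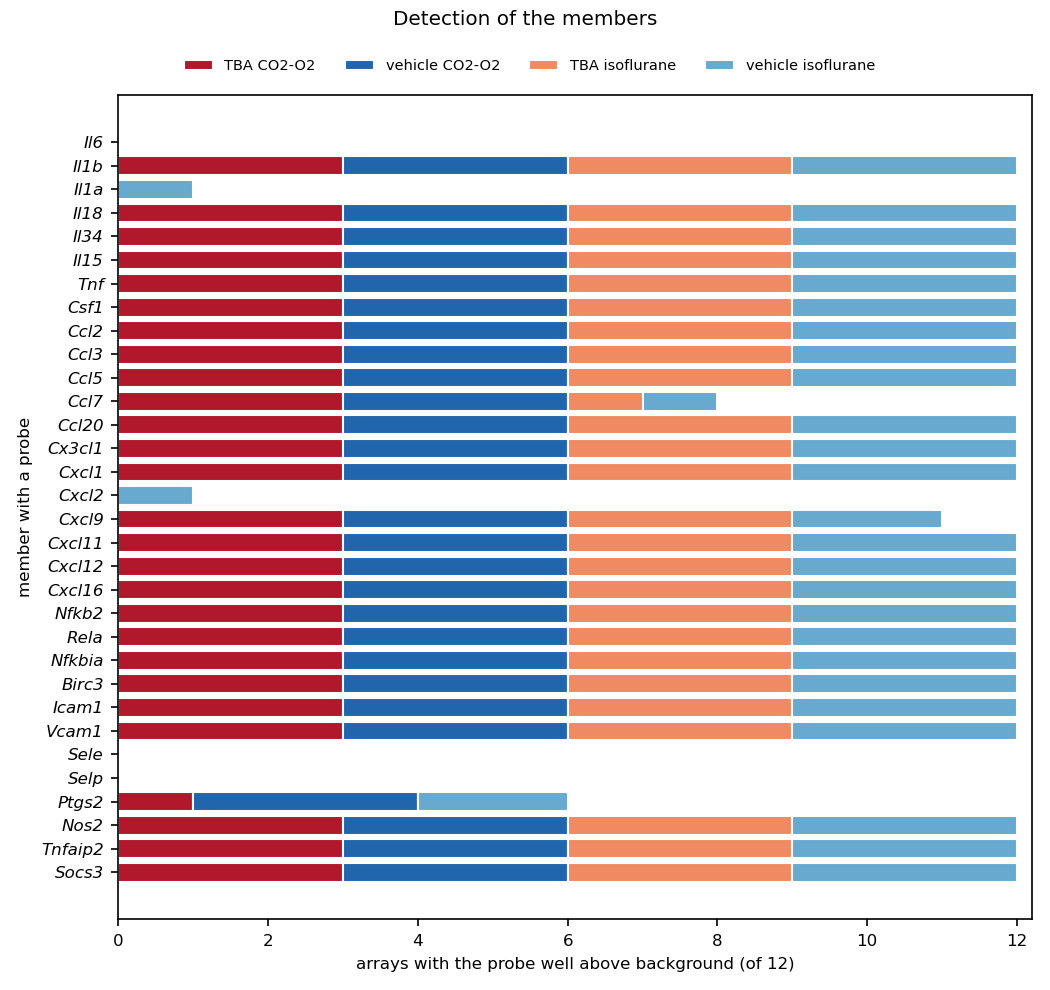
Number of arrays, of 12, on which the probe of each of the 32 members with a probe was well above background, stacked by group (x axis, arrays; colours, TBA CO2-O2, vehicle CO2-O2, TBA isoflurane, vehicle isoflurane). Il6, Sele and Selp have no bar, Il1a and Cxcl2 reach 1, and Ptgs2 has no TBA isoflurane segment.

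TBA was compared with vehicle first in the rats under CO2-O2. No member passed the test (limma, Benjamini-Hochberg over all 29603 features, threshold 0.05), where 0.149% of all features did. The lowest adjusted p was that of Socs3, the feedback inhibitor of cytokine signalling through JAK and STAT proteins. At an unadjusted p under 0.05 stood 4 of 27 members, Socs3 and Cxcl11 higher and Cxcl12 and Ccl20 lower, against 14.3% of all features. The groups did not overlap for 4 of 27 members, Socs3, Cxcl11, Cxcl12 and Vcam1, against 20.9% of all features, and 14 of the 27 differences were above 0, against 53.6%. The median difference was 0.00 over the members and 0.02 over all features.

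Socs3 signals were -1.71, -1.80 and -2.30 in TBA CO2-O2 rats against -2.70, -2.59 and -2.80 in vehicle CO2-O2 rats. All 3 TBA rats lay above all 3 vehicle rats, and the TBA rat nearest to them was rat 3, the only one on the vehicle rats' slide. The log2 difference was 0.76 ± 0.15 (SE, n = 3 rats per group; 95% confidence interval 0.43 to 1.09; limma adjusted p = 0.0982). On slide 1 alone, where the comparison rests on TBA rat 3, it was 0.40. Without that rat it was 0.94 ± 0.11 (limma adjusted p = 0.0225), which passes the threshold. That fit called 0.547% of all features, against 0.149% with all arrays. Its TBA and vehicle rats under CO2-O2 lie on different slides and scan days, so TBA and slide cannot be told apart there. Under isoflurane Socs3 was -2.02, -2.34 and -2.13 in TBA rats against -2.38, -2.45 and -2.25 in vehicle rats, groups that overlapped, with a difference of 0.20 ± 0.15 (adjusted p = 0.533). The effects under the anesthetics differed by -0.56 ± 0.21, isoflurane minus CO2-O2, which did not pass the limma test of the difference (adjusted p = 0.349). A second, dimmer Socs3 probe, well above background on 7 arrays, differed by 0.35 under CO2-O2 and 0.30 under isoflurane.

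Among the chemokines, which direct leukocyte migration, Cxcl11 and Cxcl12 had the lowest p-values under CO2-O2 and pointed opposite ways. Cxcl11, an interferon-induced ligand of the T cell receptor Cxcr3, was 0.17, 0.56 and 0.30 in TBA CO2-O2 rats against -0.84, -0.46 and -0.22 in vehicle CO2-O2 rats. Every TBA value was above every vehicle value, by 0.85 ± 0.27 on average (95% confidence interval 0.25 to 1.45; limma adjusted p = 0.217), and on slide 1 alone, where TBA rat 3 is the only TBA rat, the difference was 0.81. Cxcl12, which retains leukocytes and progenitors through its receptor Cxcr4, was 4.01, 4.12 and 4.20 in TBA CO2-O2 rats against 4.36, 4.48 and 4.55 in vehicle CO2-O2 rats. These groups did not overlap either, with the TBA rats lower by 0.35 on average (log2 difference -0.35 ± 0.13; 95% confidence interval -0.64 to -0.07; limma adjusted p = 0.255). The gene's other probes gave -0.34 and -0.42. Ccl20, a ligand of Ccr6 on lymphocytes and dendritic cells, was named only because its values stood out: it was -3.52, -3.27 and -2.89 in TBA CO2-O2 rats against -3.04, -1.58 and -2.32 in vehicle CO2-O2 rats, which overlap (-0.92 ± 0.36; limma adjusted p = 0.298).

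Under isoflurane no member passed either, where 0.395% of all features did. The list nevertheless leaned upward, with 22 of 27 differences above 0, against 53.6% of all features, and a median of 0.16 against 0.02. That lean moved with single rats: without TBA isoflurane rat 2 it was 17 of 27, without vehicle isoflurane rat 3 it was 19, and over all 12 ways of leaving out an array it lay between 17 and 23. The share of all features above 0 was not computed for these fits. The median over all features was 0.02 without TBA isoflurane rat 2 and 0.02 without vehicle isoflurane rat 3. At an unadjusted p under 0.05 stood 2 members, Cxcl1 and Ccl3, against 17.8% of all features, and the same members were the 2 whose groups did not overlap, against 24.0%.

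Cxcl1, the neutrophil-attracting chemokine, was -4.05, -3.21 and -3.72 in TBA isoflurane rats against -4.60, -4.97 and -5.45 in vehicle isoflurane rats. The groups were apart by 1.35 ± 0.38 (95% confidence interval 0.51 to 2.19; limma adjusted p = 0.116), the vehicle isoflurane rats including the lowest value of the 12. Under CO2-O2 the Cxcl1 signals were -3.24, -3.97 and -3.74 in TBA rats against -4.67, -3.22 and -3.92 in vehicle rats, which overlapped widely (0.29 ± 0.38; adjusted p = 0.772). Ccl3, a macrophage chemokine, was -1.52, -0.67 and -1.54 in TBA isoflurane rats against -1.70, -1.91 and -2.17 in vehicle isoflurane rats. Its difference of 0.69 ± 0.24 (95% confidence interval 0.15 to 1.22; limma adjusted p = 0.181) was 0.40 ± 0.18 without TBA rat 2. Cxcl12 gave 4.26, 4.09 and 4.46 in TBA isoflurane rats against 4.22, 3.78 and 4.07 in vehicle isoflurane rats, overlapping groups with a difference of 0.25 ± 0.13 (limma adjusted p = 0.339). Its sign was opposite to that under CO2-O2, and the test of the difference between the anesthetics gave 0.60 ± 0.18, isoflurane minus CO2-O2, with the lowest p of the members (limma adjusted p = 0.276). In that test 3 of 27 members, Cxcl12, Socs3 and Ccl3, had an unadjusted p under 0.05, against 12.1% of all features, and 18 of 27 values were above 0, against 50.9%. After adjustment 0 members passed, and 0 (0.0%) of all features did.

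**Figure D2:**
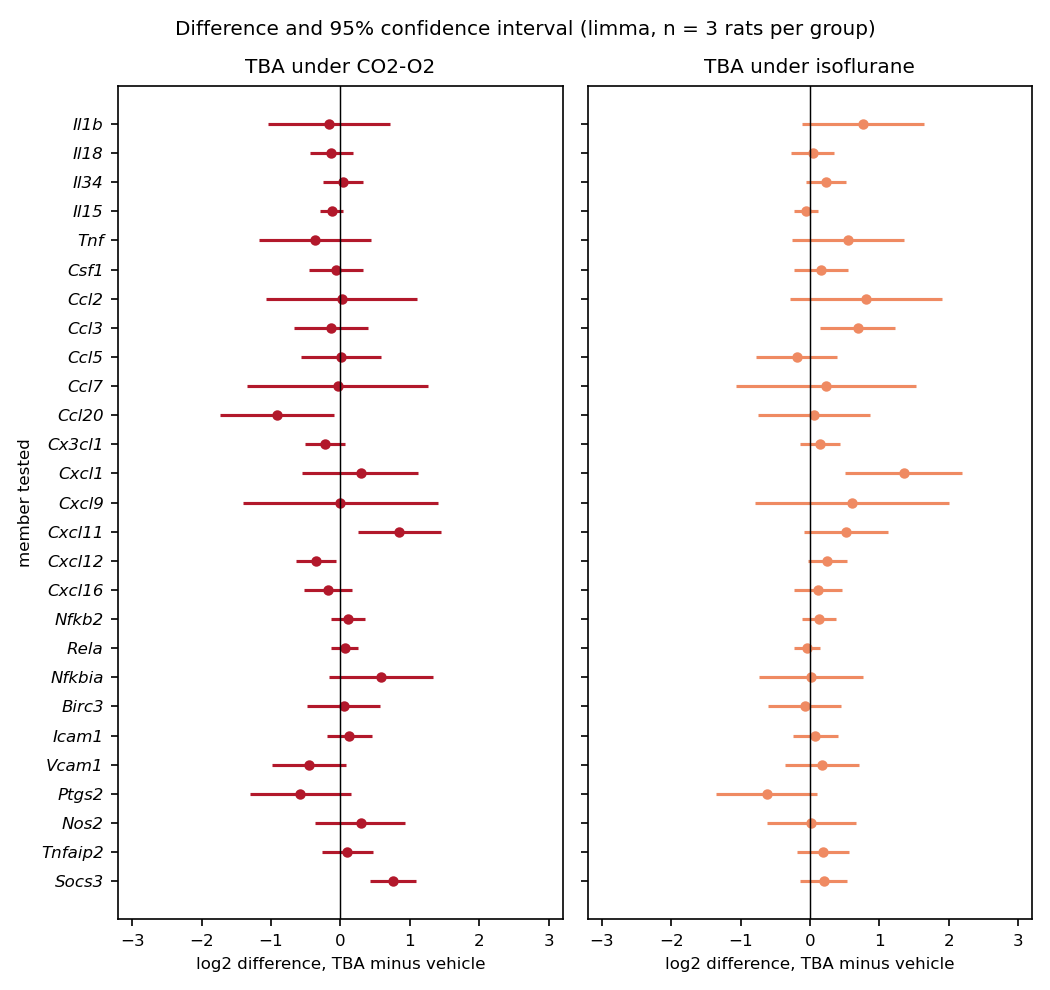
Log2 difference of TBA rats minus vehicle rats (x axis) for the 27 tested members (y axis), under CO2-O2 on the left and under isoflurane on the right; points are limma estimates and bars 95% confidence intervals, from 3 rats per group. Socs3 (0.76) and Cxcl11 (0.85) lie right of 0 under CO2-O2 and Cxcl1 (1.35) and Ccl3 (0.69) under isoflurane, with no member past the adjusted threshold.

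Averaged over both anesthetics, TBA moved no member past the threshold, against 1.88% of all features, and 17 of 27 differences were above 0, against 53.9%. The members with an unadjusted p under 0.05 were 4 of 27, against 19.0% of all features: Socs3, Cxcl11 and Cxcl1 higher, and Ptgs2, whose lower values are not counted as support because it entered the test only through vehicle CO2-O2 rats. Socs3 stood closest to a call, with a difference of 0.48 ± 0.11 (95% confidence interval 0.24 to 0.71; limma adjusted p = 0.0513). That call depended on settings: Socs3 passed under 5 of the alternatives, among them normexp background correction (0.38, adjusted p = 0.0238) and the fit without TBA CO2-O2 rat 3 (0.57, adjusted p = 0.014). These 5 fits called 2.26% to 3.69% of all features, against 1.88%. Socs3 was 0.30 with adjusted p = 0.161 when scan day was a term of the fit. Cxcl11 differed by 0.68 ± 0.19 (adjusted p = 0.0963) and, of the alternatives run, passed only without vehicle isoflurane rat 1 (0.84, adjusted p = 0.0391). That fit called 0.868% of all features, against 1.88% with all arrays. The Cxcl11 signals under isoflurane were 0.40, 0.16 and -0.05 in TBA rats against 0.27, -0.86 and -0.47 in vehicle rats, where vehicle rat 1 lies among the TBA rats. Cxcl1 differed by 0.82 ± 0.27 (limma adjusted p = 0.139).

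Ptgs2, which encodes the inducible cyclooxygenase COX-2, a product of the macula densa in rat cortex, passed the filter only through the vehicle CO2-O2 group, where it was brightest, so its differences are given no test here. It was dim: -6.01, -5.11 and -5.57 in TBA CO2-O2 rats against -5.18, -4.60 and -5.18 in vehicle CO2-O2 rats, of which 1 and 3 arrays were well above background. Under isoflurane it was -6.86, -5.60 and -6.06 in TBA rats against -5.32, -5.73 and -5.60 in vehicle rats, with 0 and 2 arrays well above background. The arrays' own detection limits lie at these signals, so no fold is given.

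The remaining signalling members showed no separation by TBA. Nfkbia, which encodes the inhibitor IkB-alpha, was 2.65, 1.66 and 1.91 in TBA CO2-O2 rats against 1.86, 0.85 and 1.75 in vehicle CO2-O2 rats. Under isoflurane it was 2.35, 2.07 and 1.86 in TBA rats against 2.29, 1.58 and 2.36 in vehicle rats, and its averaged difference was 0.30 ± 0.24 (limma adjusted p = 0.522), with overlap in both pairs. Rela, the p65 subunit of NF-kB, had the narrowest range of the tested members over the 12 arrays: 1.24, 1.09 and 1.17 in TBA CO2-O2 rats against 1.10, 1.18 and 1.05 in vehicle CO2-O2 rats, and 1.17, 1.07 and 1.31 in TBA isoflurane rats against 1.15, 1.15 and 1.36 in vehicle isoflurane rats. The averaged Rela difference was 0.01, with a 95% confidence interval of -0.12 to 0.14. Nfkb2, the precursor of the p52 subunit, and Birc3, an NF-kB-induced ubiquitin ligase that restrains cell death, had averaged differences of 0.12 ± 0.08 and -0.01 ± 0.17.

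Both detected adhesion molecules were well above background in every rat. Icam1, which binds leukocyte integrins, was 1.46, 1.77 and 1.68 in TBA CO2-O2 rats against 1.39, 1.69 and 1.44 in vehicle CO2-O2 rats. Its isoflurane signals were 1.39, 1.97 and 1.57 in TBA rats against 1.66, 1.52 and 1.53 in vehicle rats, and neither pair was apart (averaged difference 0.10 ± 0.10; limma adjusted p = 0.631). Vcam1, a ligand of the integrin VLA-4, was 1.95, 2.42 and 2.49 in TBA CO2-O2 rats against 2.72, 2.62 and 2.88 in vehicle CO2-O2 rats, with the TBA rats all lower. That difference of -0.45 ± 0.24 (limma adjusted p = 0.424) stood beside 0.17 ± 0.24 under isoflurane, where the signals were 2.31, 2.78 and 2.16 in TBA rats against 2.59, 1.73 and 2.41 in vehicle rats. Nos2, the inducible nitric oxide synthase, and Tnfaip2, a TNF-induced gene, each differed by 0.15 on average, within intervals of -0.30 to 0.61 and -0.11 to 0.41.

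Among the interleukins and Tnf, the spread within groups was wide for Il1b and Tnf, whose residual SDs were at percentiles 94.6 and 93.4 of all features, and narrower for Il18, Il34, Il15 and Csf1 (percentiles 19.3 to 70.9). Il1b, the inflammasome-processed cytokine interleukin-1 beta, was -1.41, -0.73 and -1.30 in TBA CO2-O2 rats against -1.17, -0.68 and -1.08 in vehicle CO2-O2 rats. Under isoflurane it was -1.55, -0.24 and -1.72 in TBA rats against -1.54, -1.75 and -2.54 in vehicle rats, so the highest and the lowest rat of the 12 both came from this pair. The isoflurane difference of 0.77 ± 0.39 (limma adjusted p = 0.341) was 0.31 ± 0.31 without TBA rat 2.

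Tnf, the founding member of its cytokine family, gave -2.19, -1.65 and -1.72 in TBA CO2-O2 rats against -1.69, -1.13 and -1.65 in vehicle CO2-O2 rats. In the isoflurane arm it gave -2.33, -0.82 and -2.26 in TBA rats against -2.31, -2.15 and -2.60 in vehicle rats, with TBA rat 2 apart from the other 5. Its difference there was 0.55 ± 0.36 (limma adjusted p = 0.468) with that rat and 0.06 ± 0.22 without it. Ccl2, the chief monocyte chemokine, had the widest range of the members measured on all 12 arrays, with a highest signal 5.56 times the lowest. It was -1.25, -1.03 and -1.07 in TBA CO2-O2 rats against -1.78, -0.77 and -0.86 in vehicle CO2-O2 rats, and -1.68, -0.32 and -2.06 in TBA isoflurane rats against -1.30, -2.41 and -2.79 in vehicle isoflurane rats. Both pairs overlapped, and the isoflurane difference of 0.81 ± 0.49 (limma adjusted p = 0.421) was 0.30 ± 0.43 without TBA rat 2.

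Il18, a tubule-expressed cytokine also processed by the inflammasome, stayed within -0.09 to 0.45 over all 12 rats. Its values were -0.01, 0.07 and 0.28 in TBA CO2-O2 rats against 0.14, 0.36 and 0.22 in vehicle CO2-O2 rats, and -0.09, 0.23 and 0.45 in TBA isoflurane rats against 0.19, 0.27 and 0.01 in vehicle isoflurane rats. The averaged difference was -0.04 ± 0.10 (limma adjusted p = 0.846). The averaged differences of the other tested members, Il34, Il15, Csf1, Ccl5, Ccl7, Cx3cl1, Cxcl9 and Cxcl16, ran from -0.09 in Il15 and Ccl5 to 0.30 in Cxcl9, and their 95% confidence intervals all contained 0.

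**Figure D3:**
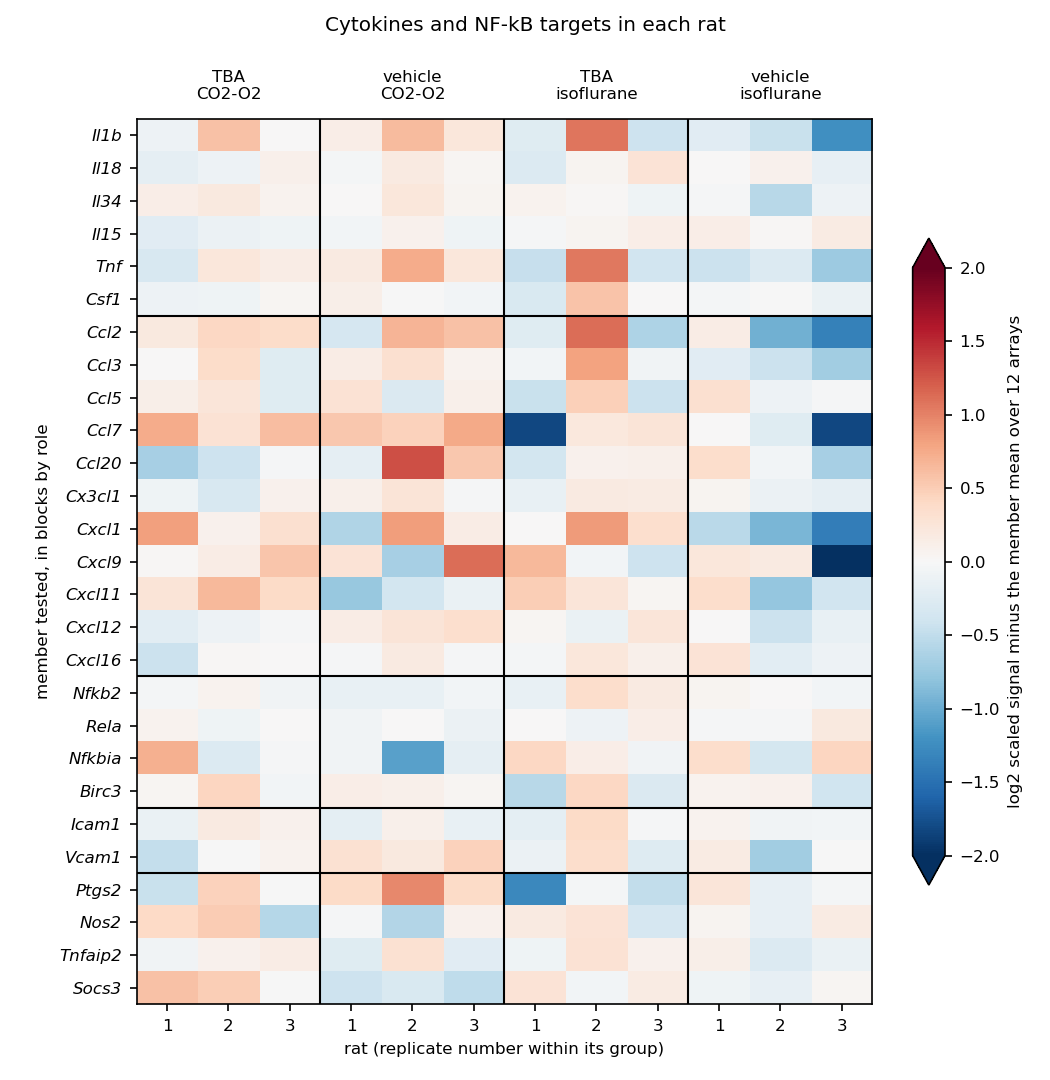
Signal of each tested member in each rat, as its log2 scaled signal minus the member's mean over the 12 arrays (colour, red above and blue below; the scale ends at 2.0 each way), with members in rows by role and rats in columns by group. TBA isoflurane rat 2 is red for Il1b, Tnf, Csf1 and Ccl2 and vehicle isoflurane rat 3 is blue for Il1b, Ccl2, Ccl7, Cxcl1 and Cxcl9.

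The spread between arrays of a group was wide for these genes. The median residual SD was 0.32 for the 27 members and 0.15 for all features, and 9 of 27 members lay above the 90th percentile of all features. Among those 9 were Ccl7, Cxcl9 and Ptgs2, which were near background on some arrays. The comparison was not matched for brightness, so spread between rats and measurement noise cannot be told apart. Of the 24 members measured on every array, 9 had their highest value in TBA isoflurane rat 2, where 12.1% of such features did: Il1b, Tnf, Csf1, Ccl2, Ccl3, Ccl5, Cxcl1, Nfkb2 and Icam1. Another 6 had their lowest value in vehicle isoflurane rat 3, where 7.7% of features did: Il1b, Tnf, Ccl2, Ccl3, Ccl20 and Cxcl1. A further 5, Il34, Cxcl11, Cxcl12, Vcam1 and Tnfaip2, were lowest in vehicle isoflurane rat 2 (11.1% of features). Of the 10 macrophage markers, 8 of them measured on every array, 5 had their highest value of the 12 in TBA isoflurane rat 2, where 12.1% of features measured on every array did. These 5 were Cd68, Cd14, Aif1, C1qa and C1qb. Others did not: Mrc1 was -2.14 there, within a range of -2.54 to -0.89 over all rats, Adgre1 was -0.34, within -1.21 to -0.06, and Lyz2 was 6.47, within 5.76 to 6.71. Cd163 was -6.47 there, below that array's lowest signal called well above background, -5.43, so its level in that rat is not known. The summed linear signal of the list, of which Lyz2 alone made up 68.4% to 79.1%, was 82.3, 130 and 97.0 times the arrays' 75th percentile in TBA isoflurane rats 1, 2 and 3, against 113, 106 and 79.2 in vehicle isoflurane rats 1, 2 and 3. Under CO2-O2 it ranged from 111 to 125 in TBA rats against 93.0 to 137 in vehicle rats. The part of the macrophage markers in the cytokine values was not tested.

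**Figure D4:**
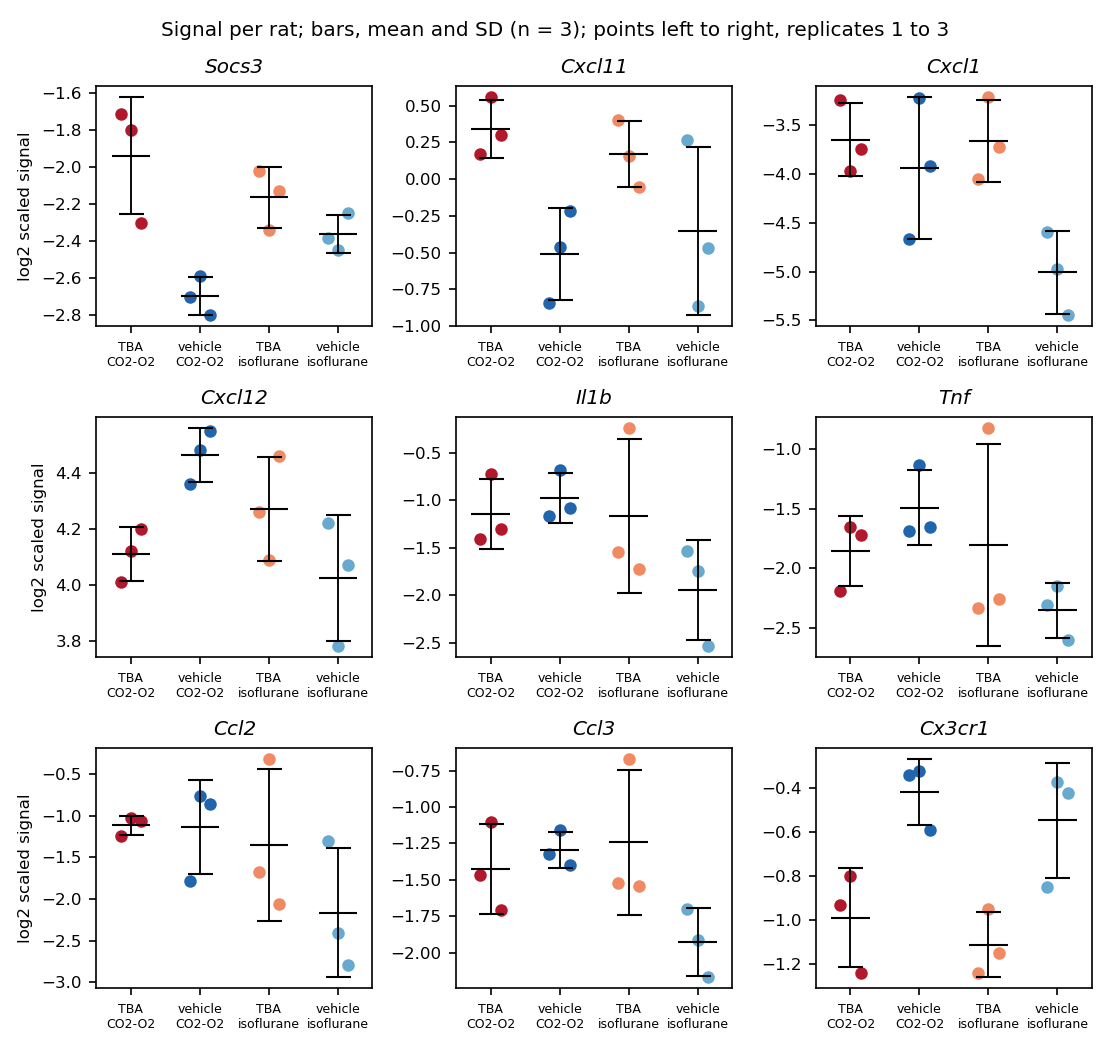
Log2 scaled signal (y axis, own scale per panel) of 8 members and of the receptor Cx3cr1 in each rat by group; points from left to right are rats 1 to 3, and bars give the mean and SD (n = 3). TBA isoflurane rat 2 stands above the other TBA isoflurane rats for Il1b, Tnf, Ccl2 and Ccl3, and Cx3cr1 is lower in TBA rats than in vehicle rats under both anesthetics, with no overlap.

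The anesthetic comparison set isoflurane against CO2-O2 with the treatment held fixed. In vehicle rats no member passed, against 0.105% of all features, and 18 of 27 members were lower under isoflurane. The other 9 were higher, where 51.4% of all features were, and the median difference was -0.16 against 0.01 over all features. At an unadjusted p under 0.05 stood 7 members, 6 lower and 1 higher, against 18.7% of all features, and the groups did not overlap for 9 of 27, against 29.1%. Those 9 were Cxcl12, Ccl3, Ccl7, Il34, Il1b, Tnf, Vcam1 and Ptgs2, lower under isoflurane, and Socs3, higher. Of these, Ccl7 and Ptgs2 entered the test only through CO2-O2 groups where they were high. The Socs3 difference of 0.33 was -0.21 with scan day in the fit. Cxcl12 had the lowest p, with 4.22, 3.78 and 4.07 under isoflurane against 4.36, 4.48 and 4.55 under CO2-O2 (difference -0.44 ± 0.13; limma adjusted p = 0.131). These vehicle groups also lie on different slides and scan days. With scan day in the fit the Cxcl12 difference was -0.30 ± 0.23 (limma adjusted p = 0.697). In that fit 0 of 27 members passed the threshold, where 0.122% of all features did.

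In TBA rats 0 members passed, against 0.00676% of all features, 1 of 27 (Il15) had an unadjusted p under 0.05, against 10.8%, and the median difference was 0.01. Differences were above 0 for 15 of 27, against 52.4% of all features, and groups did not overlap for 3 of 27 (Il15, Ccl7 and Il34), against 15.1%. Of these, Ccl7 entered the test only through CO2-O2 groups where it was high. Averaged over treatments, 0 members passed, against 0.287% of all features, and 4 of 27 had an unadjusted p under 0.05, against 17.2%: Il15 higher under isoflurane, Il34 lower, and Ccl7 and Ptgs2, which entered the test only through CO2-O2 groups where they were high and are not counted as support. In all, 9 of 27 members were higher, against 51.7% of features. Il15, a growth factor of T and NK cells, was -1.15, -1.08 and -0.99 in TBA isoflurane rats against -1.36, -1.25 and -1.21 in TBA CO2-O2 rats, with no overlap. In vehicle rats it was -0.99, -1.11 and -0.96 under isoflurane against -1.19, -1.04 and -1.22 under CO2-O2, and the averaged difference was 0.16 ± 0.05 (limma adjusted p = 0.175).

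Ccl7 was -7.14, -5.10 and -5.06 in TBA isoflurane rats against -4.57, -5.03 and -4.70 in TBA CO2-O2 rats. In vehicle rats it was -5.30, -5.56 and -7.13 under isoflurane against -4.78, -4.86 and -4.55 under CO2-O2. Every isoflurane value lay below every CO2-O2 value of its treatment, but 1 of 3 arrays of each isoflurane group was well above background, against 3 of 3 in each CO2-O2 group. Ccl7 thus passed the filter only through the groups where it was high, and its difference is given no test here. A dimmer Ccl7 probe, well above background on 5 arrays, differed by -0.04 in TBA rats and -1.26 in vehicle rats. Il34, a ligand of the macrophage receptor Csf1r, was 4.55, 4.51 and 4.39 in TBA isoflurane rats against 4.61, 4.68 and 4.55 in TBA CO2-O2 rats. In vehicle rats it was 4.45, 3.92 and 4.38 under isoflurane against 4.49, 4.70 and 4.54 under CO2-O2, an averaged difference of -0.23 ± 0.09 (limma adjusted p = 0.236).

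Most leukocyte markers were also lower under isoflurane when averaged over treatments, 8 of 10 for macrophages, 5 of 6 for T cells, 2 of 3 for neutrophils and 2 of 2 for B cells, and 0 of them passed the threshold. Over all features 51.7% were higher and 0.287% passed. The summed T cell markers ranged from 1.20 to 1.44 in TBA isoflurane rats against 1.55 to 1.69 in TBA CO2-O2 rats, and from 1.11 to 1.27 in vehicle isoflurane rats against 1.34 to 1.98 in vehicle CO2-O2 rats. The summed neutrophil markers ranged from 0.171 to 0.264 in TBA isoflurane rats against 0.247 to 0.403 in TBA CO2-O2 rats, and from 0.125 to 0.215 in vehicle isoflurane rats against 0.191 to 0.406 in vehicle CO2-O2 rats. S100a9 alone made up 50% to 67.8% of the neutrophil sum, and Cd3d 52.9% to 63% of the T cell sum. Cd3g, a chain of the T cell receptor complex, differed by -0.73 ± 0.15 (limma adjusted p = 0.0656), and S100a8, an abundant neutrophil protein, by -0.94 ± 0.26 (adjusted p = 0.134). Lck and Csf3r went the other way. Lck averaged -4.22 under isoflurane against -4.38 under CO2-O2 in TBA rats, and -4.57 against -4.66 in vehicle rats. Csf3r averaged -4.66 against -5.32 in TBA rats, and -5.01 against -5.15 in vehicle rats. The part of the leukocyte markers in the members' differences was not tested.

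The rest of the pathway was read from 52 further genes, 22 receptors of these cytokines and 30 signalling proteins, of which 40 were tested. Averaged over anesthetics, 20 of the 40 were higher and 20 lower in TBA rats, with a median of -0.01, and 1 fell past the threshold, against 1.88% of all features. That gene was Cx3cr1, the receptor of Cx3cl1 (fractalkine) on monocytes, macrophages and NK cells. Its signals were -0.93, -0.80 and -1.24 in TBA CO2-O2 rats against -0.34, -0.32 and -0.59 in vehicle CO2-O2 rats, and -1.24, -0.95 and -1.15 in TBA isoflurane rats against -0.85, -0.37 and -0.42 in vehicle isoflurane rats. All 3 TBA rats were lower than all 3 vehicle rats under each anesthetic, and the averaged difference was -0.57 ± 0.11 (95% confidence interval -0.82 to -0.32; limma adjusted p = 0.0392).

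The Cx3cr1 call rests on the brighter of its probes for the same transcript. The dimmer probe, well above background on all 12 arrays, differed by 0.14 on average, and the mean of both probes by -0.21 (adjusted p = 0.476). Leaving out single arrays gave adjusted p-values from 0.0282 to 0.102, and the call was lost in 10 of 12 such fits, all but those without TBA CO2-O2 rat 3 and without vehicle isoflurane rat 1. Its ligand Cx3cl1, a chemokine tethered to the cell surface, was detected in every rat and differed by -0.03 ± 0.09 on average (adjusted p = 0.878). The genes of the pathway list with the next lowest p-values were Cyld, a deubiquitinase that restrains NF-kB, with a difference of -0.14 ± 0.04 (limma adjusted p = 0.129), and Stat3, the factor that acts downstream of interleukin-6, with 0.15 ± 0.07 (adjusted p = 0.264). The dimmer Stat3 probe, well above background on all 12 arrays, had the opposite sign, with an averaged difference of -0.05.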

How the data were processed

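Total RNA of renal cortex from 12 rats was labelled with Cy3 and hybridised to Agilent arrays, 1 per rat, per the labels. The deposited scanner output gives the processed intensity of each spot, made with Agilent Feature Extraction 10.7 and, per the file headers, corrected for background within the array but not scaled between arrays. The deposited series table, an alternative, holds on a linear scale the ratio of that intensity to an array's 75th percentile, as found from its values; its columns match the scanner files of their own group under other replicate numbers, and the scanner files' numbers are used. Replicate numbers did not pair rats.

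Probe accessions, without versions, were matched to the GRCr8 RefSeq table: 27460 of 61657 probes had 1 symbol, 0 several and 34197 none. The value was log2 of the deposited processed signal minus the array's 75th percentile. Control and outlier spots were left out, 40216 probes that stood well above background throughout at least 1 group were kept, and the brightest kept probe gave a gene's value; an untested member is shown by its brightest probe. One mean per group was fitted to all 12 arrays with limma 3.58.1 in R 4.3.3, without covariates, for 7 contrasts, adjusted by Benjamini-Hochberg. P-values measure the spread between the arrays of a group, 1 per rat, so rats and measurement noise are not separated. In the TBA CO2-O2 group that spread also holds slide and scan day. The labels call the rats biological replicates, and the number of arrays limits the precision. The fit was tested on simulated data.

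Members and lists were chosen with earlier results of these data known. Values on every array are given for members called, with 1 of the 3 lowest p-values in a main comparison, with 1 of the 3 widest ranges among members measured on all 12 arrays, or anchoring a role. Alternatives were normexp background correction (offset 50), quantile or median scaling, the series table, other filters, averaging a gene's probes, a random slide block (statmod 1.5.0), a replicate block, only the arrays compared, trend with robust spread, and each array left out. Scan day or slide as a fixed term, slide 1 alone and scan day 2 alone were chosen after seeing the data. Comparisons share control arrays where they share a group.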

Additional observations from a re-analysis of the deposited data

How the results depend on the processing

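No alternative reversed the differences of Socs3, Cxcl11, Cxcl1, Cxcl12 and Ccl3 that led a TBA comparison, of Il15 and Il34 in the averaged anesthetic comparison, or of Cx3cr1. Ccl7 kept its sign too, but it entered the test only through CO2-O2 groups where it was high. Its sign is therefore not counted as support. The Socs3 difference between vehicle groups, 0.33, was -0.21 with scan day or slide as a fixed term. The count of members called was 0 in each of the 7 contrasts and moved only for TBA. With normexp it was 1 for TBA under isoflurane (Cxcl1, 0.68 against 1.35 in the main fit, limma adjusted p = 0.0496). In that fit 4.42% of all features were called, against 0.395%. The count was also 1 for the averaged effect with normexp, median scaling, the filter for all 12 arrays, and trend with robust spread (each Socs3), fits that called 2.26% to 3.69% of features. With single arrays left out it ranged from 0 to 1 for TBA under CO2-O2 and for the averaged effect, and stayed 0 in the other contrasts. The call under CO2-O2 was Socs3 without TBA rat 3, in a fit that called 0.547% of all features. For the averaged effect the calls were Socs3 without TBA CO2-O2 rat 3 (3.35% of all features called) and Cxcl11 without vehicle isoflurane rat 1 (0.868%). The numbers did not pair rats: 18 same-numbered pairs correlated at -0.133 to 0.133 in their deviations from group means. With the replicate block 0 members were called in each contrast, and Cx3cr1 lost its call (adjusted p = 0.0514), as it did with no filter on dim probes (0.107), the mean of its probes (0.476) and scan day as a term (0.0581). The slide as a random block (consensus correlation 0.0671) gave 0 calls among members. With slide or scan day as a fixed term the TBA effect under CO2-O2 rests on 1 TBA array, and its Cxcl12 difference was -0.26 (adjusted p = 0.697). Ptgs2, Ccl7 and Cxcl9 were near background on some arrays, which limits their differences. The cause of these changes was not tested.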
